A study of Sus scrofa domesticus with 36 samples.

Results

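Backfat was sorted by how much of the cell division transcript TOP2A it held. TOP2A encodes topoisomerase II alpha, which untangles DNA in dividing cells. The 18 backfat libraries of the series, 1 per pig, were ranked by the TOP2A count over the gene total of the library, scaled to CPM (counts in a library of 1000000). The 6 libraries at the top (the high group) were set against the 6 at the bottom (the low group), so 12 of 36 libraries in the series enter the backfat comparison and the other 6 backfat libraries lie between them. The muscle libraries of the same 12 pigs, which the ranking did not use, give a second comparison.

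The labels' growth protocol gives 1 commercial cross for all pigs, Danbred 600 x Newsham NC32, farrowed on 1 farm and killed 3 weeks after weaning. The breed field of the labels instead carries another Newsham number for each of the 36 libraries, from NC32 to NC71, and differs even between the backfat and muscle of the same pig. RNA came from the subcutaneous fat of the back and from the longissimus muscle. Of the 18, 9 had grown slowest (percentile 10 or below) and 9 lay in percentiles 60 to 70, matched on litter size and sow parity. Neither class nor pair of a pig is given in the labels used here, so growth rate and TOP2A level cannot be told apart in any comparison below. No drug, diet or allele distinguishes the groups in the labels, sex is not given there, and the labels also state an age of 16 to 17 days and a stage of weaning, which do not match a sampling 3 weeks later. Pigs are called here by their names in the labels, and each is a separate animal.

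Backfat in a young pig is still growing. Its mature adipocytes do not divide; new ones come from stromal progenitors, fibroblast-like cells around vessels that carry PDGFRA, DPP4 or PI16, pass through a committed stage marked by PPARG and ICAM1, and then fill with lipid. The tissue also holds endothelial cells, macrophages and lymphocytes, and lymphocytes divide when activated. The comparison therefore asks whether the transcripts that vary with TOP2A across pigs are those of progenitors or those of lymphoid cells. In bulk tissue, fewer cells of a type and less RNA per cell cannot be told apart.

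TOP2A over the library total was 233 CPM in pig Sample_991, 197 in pig Sample_491, 185.98 in pig Sample_889, 105 in pig Sample_998, 101 in pig Sample_911 and 85.5 in pig Sample_186, the high group. In the low group it was 47.3 CPM in pig Sample_231, 41.8 in pig Sample_659, 40.6 in pig Sample_572, 39.5 in pig Sample_77, 34.7 in pig Sample_176 and 29.9 in pig Sample_656. Pig Sample_391, at 72.8 CPM, lay just outside the high group, and pig Sample_242, at 48.0 CPM, just outside the low group. The groups were chosen by these measured values, which are given as a description. The lower edge is narrow and the upper part is spread out: 3 pigs stand well above the rest, and the others form an even slope, as the plot of TOP2A by pig shows. The rounded TOP2A counts behind the values ran from 90 to 1167.

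**Figure D1:**
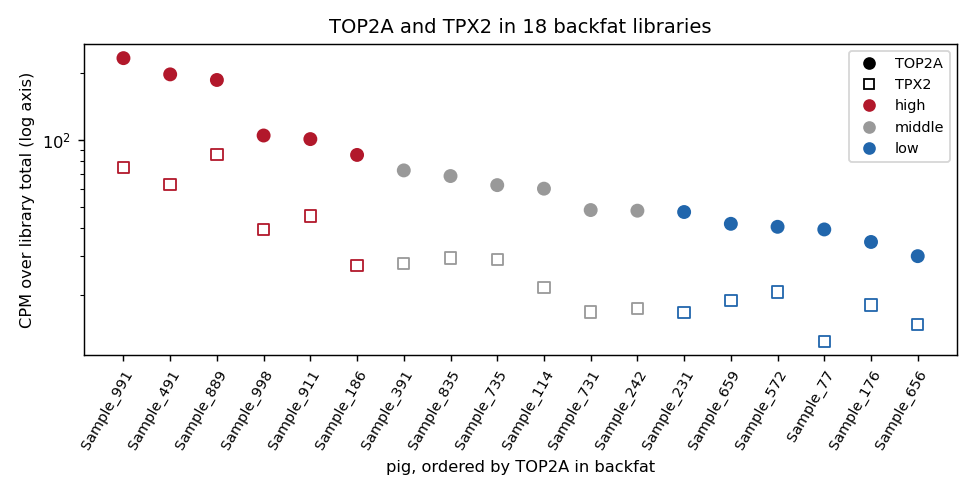
TOP2A (filled circles) and TPX2 (open squares) in the 18 backfat libraries, in CPM over the library total on a log axis, with the pigs ordered by TOP2A and coloured by class. TOP2A falls from 233 CPM in pig Sample_991 to 29.9 CPM in pig Sample_656 by construction, and the low group lies below every high pig for TPX2 as well.

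TPX2, which assembles the spindle and served as the second marker of dividing cells, was between 27.1 and 85.7 CPM in the high group and between 12.4 and 20.7 CPM in the low group on the same scale. The groups did not overlap. From here on, CPM are scaled with trimmed-mean (TMM) factors, which correct for a few abundant transcripts. On that scale TOP2A in pig Sample_391 (83.3 CPM) passed pig Sample_186 (82.5 CPM), and pig Sample_242 (48.5 CPM) lay under pig Sample_231 (49.4 CPM), so the edges of both groups depend on the scaling.

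Gene totals of the 18 backfat libraries ran from 2990913 to 5373406 counts and those of the 18 muscle libraries from 4716541 to 6216459. Of 8 measures of library quality and muscle content, none passed an adjusted p of 0.05 between the groups by a two-sided exact permutation test; the smallest p was 0.0736 (adjusted p = 0.589), for the share of muscle counts that fell in no gene. The backfat library of pig Sample_656, in the low group, stood apart, with 53.8% of its counts in no gene against 29.3% to 37.7% in the other 11 backfat libraries compared. Transcripts of muscle fibres were present in backfat: the 13 sarcomere genes summed to 220.2 to 9943 CPM in the high group and to 406 to 8516 CPM in the low group. The 8 adipocyte genes, which the adipose label calls for, summed to 2393 to 4226 CPM in the high group and to 2377 to 3946 CPM in the low group.

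Across all genes, 13116 were fitted in backfat with edgeR's quasi-likelihood model. A gene is said to be called where the adjusted p of that fit was under 0.05, which here ranks genes and tests nothing, since TOP2A of the same libraries set the groups. By that mark 539 genes (4.11%) were higher and 121 (0.923%) lower in the high group, and the median log2 difference of all genes was -0.0042. Log2 differences are high minus low and are given with their SE from the fit, with n = 6 pigs per group. In 340 genes (2.59%) all 6 high libraries lay above all 6 low ones, and in 91 (0.694%) all lay below. The count of higher genes fell to 350 without pig Sample_991, 354 without pig Sample_572, 351 without pig Sample_176 and 359 without pig Sample_656. The count of lower genes was 51, 54, 80, 39, 42 and 51 without pigs Sample_991, Sample_491, Sample_998, Sample_572, Sample_176 and Sample_656, and 252 without pig Sample_911.

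Of the 8801 fitted genes with a symbol, 420 were called higher. Among them 75 belong to the lists of mitosis, DNA replication and recombination repair, out of 115 such genes that were fitted. The leukocyte lists (T and NK, B, germinal centre and plasma cell, thymocyte, pan-leukocyte, macrophage, granulocyte and antigen presentation) gave 44 out of 81. The progenitor, preadipocyte, imprinted and matrix lists gave 0 out of 55, and 301 were in none of these lists. At the share over all genes (4.11% higher) few calls would fall among 55 genes, so this 0 is near the background. Of the same 8801 genes 89 were called lower, of which 4 were among the 11 fitted endothelial genes. The other 85 were in none of the lists named in this paragraph.

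**Figure D2:**
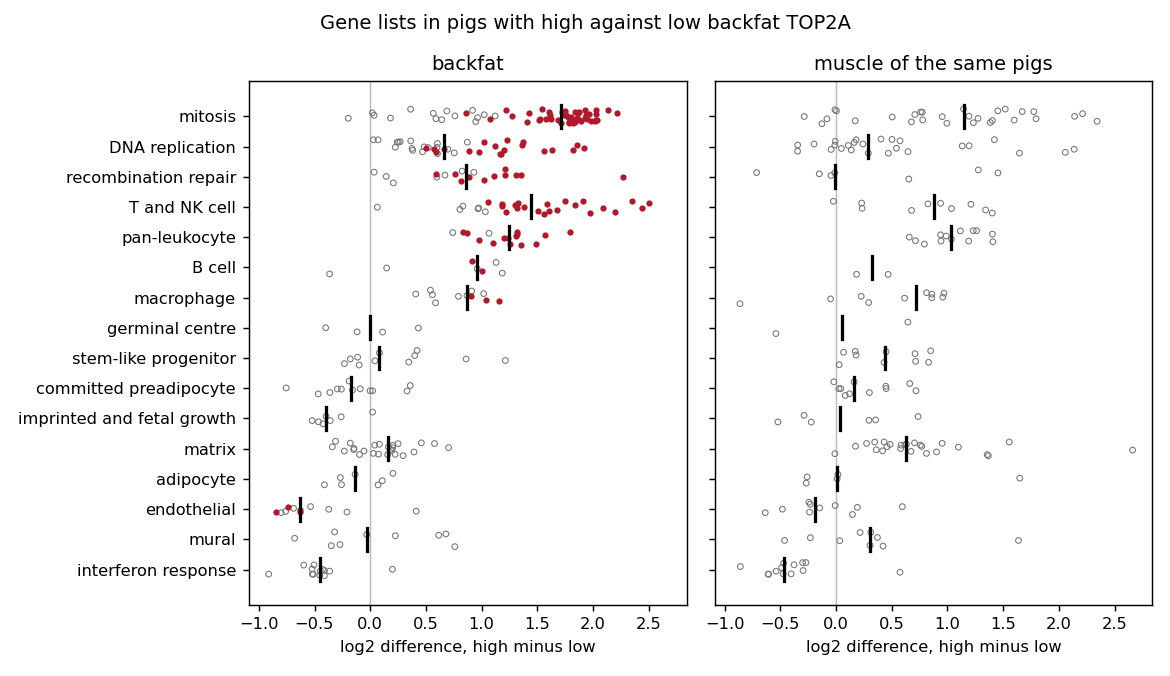
Log2 difference, high minus low group, of each tested gene of 16 lists, in backfat (left) and in the muscle of the same pigs (right). Filled red points are called genes, open points are not called, and black bars are list medians. In backfat the mitosis median is 1.72 and the T and NK cell median 1.44, the stem-like progenitor median is 0.08, and no gene is called in muscle.

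Genes of the mitotic apparatus, TOP2A among them, made up the largest block. Of 60 tested, 45 were called higher and 0 lower, where 4.11% and 0.923% of all genes were. In 39 the high group lay wholly above the low group, as in 2.59% of all genes. The median log2 difference was 1.72, against -0.0042 over all genes. TOP2A was 82.5, 144 and 229 CPM (lowest, median, highest) in the high group and 31.9, 38.9 and 49.4 CPM in the low group. Cyclin B1 (CCNB1), which drives entry into mitosis, was 10.8, 34.1 and 50.3 CPM in the high group. In the low group it was 6.35, 7.53 and 10.6 CPM. The lowest high library of CCNB1 thus lay just above the highest low one. Its log2 difference was 2.03 (SE 0.303), and that of its kinase CDK1 was 1.82 (SE 0.294). The one mitosis gene below 0 was CDC20, at -0.20, singled out after its value was seen.

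DNA replication genes had fewer calls and a smaller median. Of 37 replication genes 19 were called higher (4.11% of all genes were) and 0 lower, with a median log2 difference of 0.66. MCM3, a subunit of the replicative helicase, was 30.9, 61.7 and 87.3 CPM in the high group and 15.3, 19.4 and 21.1 CPM in the low group. These groups did not overlap, and the log2 difference was 1.63 (SE 0.239). RRM1, the large subunit of ribonucleotide reductase, differed by 0.38 (SE 0.122) and RFC5, a clamp loader subunit, by 0.03 (SE 0.100), and neither was called. Among 18 genes of recombination repair 11 were called higher, beside the same 4.11% of all genes, with a median of 0.86. FANCD2, of the interstrand crosslink pathway, was 16.8, 26.5 and 34.2 CPM in the high group and 9.58, 11.3 and 18.3 CPM in the low group, where pig Sample_231 alone reached into the high range.

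Of the 9 tested genes that hold or push the cell cycle outside mitosis, 1 was called (4.11% of all genes were called higher). CDKN2C, an inhibitor of CDK4 and CDK6, differed by 1.35 (SE 0.223) with no overlap, from a mean of 9.41 CPM in the low group to 23.9 in the high group. The other 6 tested brakes were not called; RB1, the retinoblastoma protein, differed by -0.25 (SE 0.0990) and CCNG1 by -0.15 (SE 0.201). MYC and CDK4, the G1 drivers tested, differed by 0.05 (SE 0.154) and -0.20 (SE 0.180). Ribosome biogenesis, which accompanies growth in cell mass, had a median of 0.06 over 19 genes and 0 calls. That 0 is near the background for a list of this size.

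The T and NK cell list gave the most calls by number of the lists outside cell division, though the pan-leukocyte list had a larger share called (14 of 16). Of 28 tested, 22 were called higher and 0 lower, where 4.11% and 0.923% of all genes were. All 28 had a log2 difference above 0 (49.4% of all genes did). In 9 the high group lay wholly above the low group, as in 2.59% of all genes. The median was 1.44. Summed over the 36 identifiers of the list, the level was 569, 683 and 958 CPM in the high group and 217, 293 and 432 CPM in the low group. The sums did not overlap.

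CD3D, a chain of the T cell receptor complex, was 9.86, 22.7 and 43.6 CPM in the high group. In the low group it was 4.56, 5.65 and 6.39 CPM. The 6 low pigs were nearly level and the high pigs were spread over more than 4-fold, with pig Sample_991 highest and pig Sample_186 lowest. The log2 difference was 2.09 (SE 0.341). GZMA, a granzyme of cytotoxic lymphocytes, was 7.17, 22.1 and 32.3 CPM in the high group and 3.40, 5.19 and 5.58 CPM in the low group, a log2 difference of 2.19 (SE 0.298). Its groups did not overlap, though pig Sample_186 came close. A second identifier with the same symbol was at 0 in every backfat library.

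The co-receptors CD4, of helper T cells, and CD8A, of cytotoxic T cells, were both called higher. CD4 was 7.87, 15.2 and 22.9 CPM in the high group and 3.55, 3.90 and 8.17 CPM in the low group, an overlap of 1 low pig with 2 high pigs. CD8A was 15.2, 29.8 and 63.3 CPM in the high group and 7.10, 11.8 and 19.9 CPM in the low group, with overlap, and its log2 difference of 1.31 (SE 0.347) lost the call in 8 of the 12 fits that left out 1 pig. CD2, an adhesion receptor of T and NK cells, was 89.7, 145 and 214 CPM in the high group against 40.4, 62.9 and 98.1 CPM in the low group, where 1 low pig lay above the lowest high pig.

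The 3 largest differences of the T and NK cell list were in CXCR6, CTLA4 and CXCR3, all at low levels. CXCR6, a chemokine receptor of tissue-resident T cells, differed by 2.50 (SE 0.472) on means of 9.25 and 1.65 CPM. CXCR3, the receptor that guides T cells to inflamed sites, differed by 2.35 (SE 0.587) on means of 8.24 and 1.67 CPM. The inhibitory receptor CTLA4 was 2.41, 3.20 and 4.71 CPM in the high group and 0.198, 0.654 and 0.935 CPM in the low group, with no overlap. Cytotoxic genes PRF1 (perforin) and NKG7 differed by 1.38 (SE 0.233) and 1.33 (SE 0.210). The chemokine CCL5, which T cells secrete, differed by 1.83 (SE 0.299), from a mean of 45.6 CPM to 162 CPM. Of the genes known from naive or recirculating T cells, TCF7 (1.50, SE 0.297) and IL7R (1.18, SE 0.279) were called, CCR7 (1.03) and LEF1 (0.97) were not, nor was the receptor chain CD247 at 0.06 (SE 0.181).

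Genes shared by all leukocytes gave 14 calls among 16, all higher, with a median of 1.25 and 7 without overlap. Over all genes 4.11% were called higher, and in 2.59% the high group lay wholly above the low group. PTPRC, the CD45 phosphatase, was 148, 262 and 380 CPM in the high group and 71.0, 111 and 156 CPM in the low group, so that pig Sample_231 lay above pig Sample_186. LCP1, a leukocyte actin-bundling protein, was 190, 277 and 479 CPM in the high group and 84.4, 100 and 122 CPM in the low group, with no overlap. The 2 genes not called were ITGAL (0.74) and TBC1D10C (1.07), named after their values were seen.

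**Figure D3:**
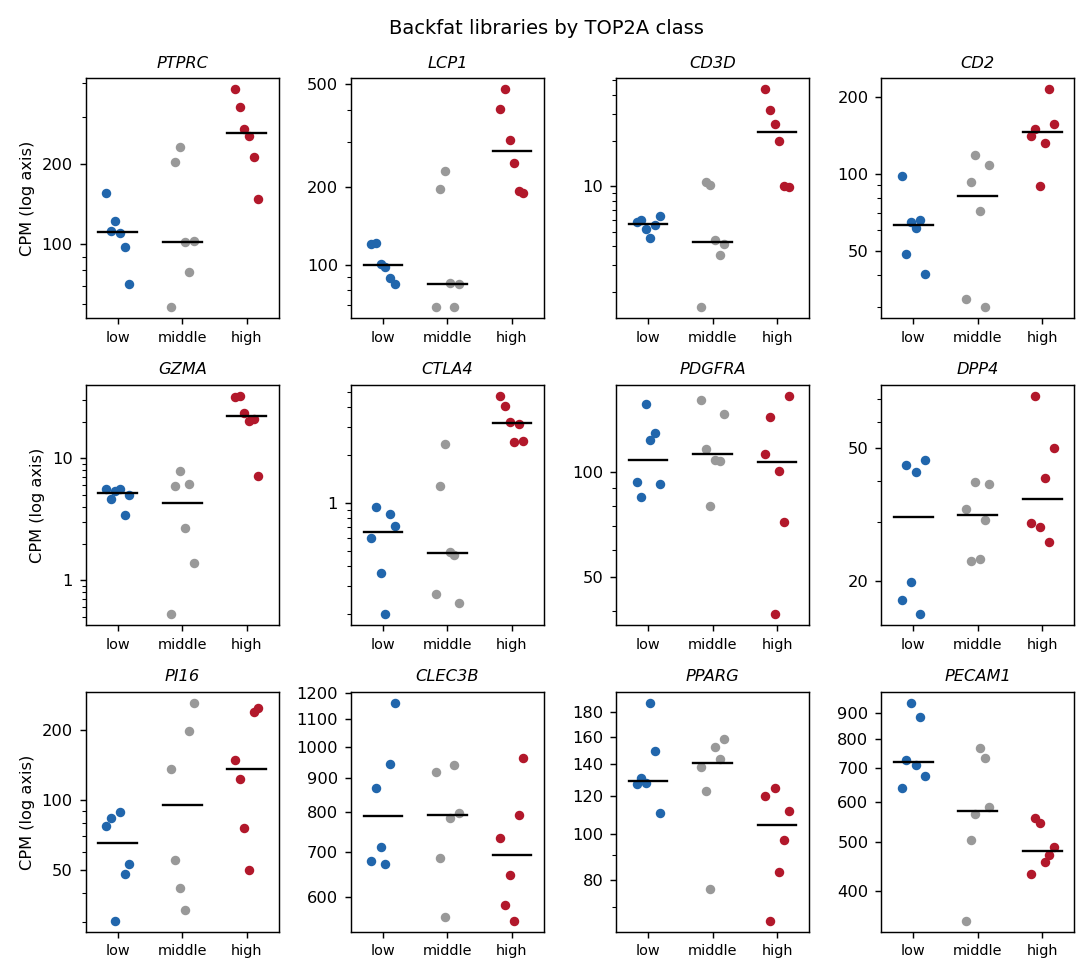
CPM on a log axis of 12 genes in the low, middle and high backfat libraries, 6 of each, with bars at the medians. The leukocyte and T cell genes PTPRC, LCP1, CD3D, CD2, GZMA and CTLA4 are higher in the high group, the progenitor genes PDGFRA, DPP4, PI16 and CLEC3B overlap across all classes, and the endothelial gene PECAM1 is lower in the high group.

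B cell genes gave fewer calls. Of 7 tested, 2 were called higher, the adaptor BLNK (0.92, SE 0.143) and the lectin CD22 (means of 19.7 and 9.75 CPM), and the median was 0.96. The share called higher over all genes was 4.11%. BLNK was 26.2, 31.8 and 36.9 CPM in the high group and 12.7, 16.7 and 20.9 CPM in the low group, with no overlap. The receptor chain CD79B was 3.93, 4.93 and 28.6 CPM in the high group and 0.399, 2.41 and 13.1 CPM in the low group, an overlap; its log2 difference of 1.13 was 0.25 without pig Sample_491. Of 4 germinal centre genes 0 were called, near the background for so short a list, with a median of -0.0037. BCL6, the master regulator of that reaction, differed by -0.12 (SE 0.163). MZB1, which helps plasma cells fold antibody, was 3.36, 27.1 and 79.7 CPM in the high group and 0.595, 6.77 and 14.9 CPM in the low group; with a log2 difference of 2.30 (SE 0.817) it was not called.

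Lymphoid tissue that could have been cut with the fat was looked for by its own markers. CCL19, a chemokine of lymph node stroma, differed by 0.06 (SE 0.546), on means of 131 and 126 CPM. It was the only 1 of 7 listed stroma genes with an identifier. Its level spread widely, at 59.3, 107 and 269 CPM in the high group and 29.4, 89.9 and 342 CPM in the low group. Whether single pigs held such tissue was not tested. The other 2 thymocyte list genes with an identifier were at 0 in all 18 backfat libraries, while DNTT differed by 0.32 (SE 0.409) on means of 3.76 and 2.96 CPM.

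Myeloid lists gave fewer calls than the pan-leukocyte list, and directions were mixed only in the granulocyte and mast cell lists. Macrophage genes summed to 1123, 1440 and 1847 CPM in the high group. In the low group the sum was 421, 760 and 1576 CPM, with overlap. All 11 macrophage genes had a log2 difference above 0, with a median of 0.87, and 3 were called: FCER1G (1.04, SE 0.166), TYROBP (0.90) and MSR1 (1.16). Over all genes 49.4% were above 0 and 4.11% were called higher. FCER1G and TYROBP, signalling chains shared with NK cells, are not particular to macrophages. The complement gene C1QA differed by 0.54 (SE 0.335) and the mannose receptor MRC1 by 0.91 (SE 0.308), neither called. The class II genes SLA-DMA (0.73, SE 0.136) and SLA-DMB (0.75, SE 0.158) were the 2 called of 7 antigen presentation genes, and all 7 were above 0. Of 5 granulocyte genes 3 were above 0, and 1 was called higher, with no overlap. Of 3 mast cell genes 1 was above 0 and 0 were called, with a mast cell median of -0.29. The neutrophil granule gene LTF spread from 5.50 to 350 CPM within the high group.

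Among 11 stem-like progenitor genes 0 were called in either direction, where 4.11% of all genes were called higher and 0.923% lower, so for a list of this size the count is near the background. The median log2 difference was 0.08, with values from -0.23 to 1.21, and the groups of every gene overlapped. PDGFRA, the growth factor receptor that marks adipose progenitors, was 39.1, 107 and 166 CPM in the high group. In the low group it was 84.9, 109 and 158 CPM. The high group spanned the whole low range, with pig Sample_889, the third in TOP2A, the lowest of all 18 pigs. The log2 difference was -0.10 (SE 0.285). DPP4, which marks the most primitive fraction, differed by 0.42 (SE 0.335), and CLEC3B, the most abundant gene of the list, by -0.23 (SE 0.172). The list summed to 1327, 2252 and 2884 CPM in the high group and to 1766, 1983 and 2483 CPM in the low group.

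PI16, which marks the same primitive fraction, had the largest difference of the list. It was 50.2, 136 and 248 CPM in the high group and 30.4, 65.4 and 88.9 CPM in the low group. The groups overlapped, because pigs Sample_889 and Sample_998 lay within the low range. The log2 difference of 1.21 (SE 0.391) was not called; it was called without pig Sample_998 (1.39) and with DESeq2 (1.22). SFRP2, a secreted Wnt modulator, differed by 0.86 and was not called.

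Of 12 committed preadipocyte genes 0 were called, again near the background for a list of this size, with a median of -0.17 and 3 genes above 0. With 9 pigs against 9, or ranked by the mean of 59 mitosis genes, 2 were called lower. The count was 1 lower with DESeq2, with PDGFRA as a covariate and without pig Sample_911. PPARG, the regulator of adipocyte differentiation, was 65.5, 104 and 125 CPM in the high group and 111, 129 and 189 CPM in the low group, with overlap, a log2 difference of -0.47 (SE 0.167). ICAM1 differed by -0.09, and SPARCL1, a matrix-linked glycoprotein, by -0.75 (SE 0.217). The imprinted and fetal growth genes, which fall with postnatal age in many tissues, had 0 calls among 7 and a median of -0.40, with GRB10 at -0.52 (SE 0.183). Mature adipocyte genes had 0 calls among 7 and a median of -0.14; the droplet protein PLIN1 differed by -0.14 (SE 0.187). Matrix genes had 0 calls among 25 and a median of 0.16. The counts of 0 in the imprinted, adipocyte and matrix lists are also near the background (4.11% higher, 0.923% lower) for lists of these sizes. Whether the progenitor and T cell lists differ from each other was not tested.

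Of 11 endothelial genes, 4 were called lower and 0 higher, where 0.923% and 4.11% of all genes were. The median was -0.63. PECAM1, the junction protein CD31, was 431, 480 and 558 CPM in the high group. In the low group it was 641, 719 and 944 CPM. No high pig reached the low range. The log2 difference was -0.63 (SE 0.121). FLT1 (-0.63), TEK (-0.74) and ESAM (-0.84) were the other called genes. The list summed to 963 to 1347 CPM in the high group and to 1538 to 2239 CPM in the low group, without overlap. The receptors KDR (-0.69, SE 0.204) and the lymphatic LYVE1 (-0.76, SE 0.558) were not called, and PROX1, the lymphatic regulator, differed by 0.41. The count of called genes was 1 without pig Sample_991 or pig Sample_572, 2 without pig Sample_998 or pig Sample_176, and 6 without pig Sample_889, while the median stayed between -0.69 and -0.55 in all 12 fits that left out 1 pig.

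Outside the 3 lists of division genes, 12 higher genes were taken by the size of their difference among those with no overlap. FCRL3, a receptor of lymphocytes, differed by 2.36 (SE 0.382), SIT1, an adaptor of T cell signalling, by 2.29 (SE 0.415), and PVRIG, an inhibitory receptor of T and NK cells, by 2.05 (SE 0.350). HJURP, which loads the centromeric histone, differed by 2.34, SHCBP1 by 2.13, PIMREG by 2.10, MTFR2 by 2.02 and PRR11 by 1.95. Heparanase (HPSE, 2.11) and endothelial lipase (LIPG, 2.02, SE 0.234) completed the 12 with GZMA and CD3D. LIPG was 52.2, 90.9 and 120 CPM in the high group and 15.6, 23.1 and 32.9 CPM in the low group. Although named for endothelium, it went against the endothelial list.

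In the other direction 12 genes were taken by the same rule. The neutrophil chemokine CXCL2 was 6.68, 16.3 and 20.03 CPM in the high group and 31.4, 45.5 and 57.4 CPM in the low group, a log2 difference of -1.51 (SE 0.229). FMO1, a flavin monooxygenase, was 71.6, 131 and 138 CPM against 241.6, 280 and 406 CPM in the low group (-1.29, SE 0.174). CA4, a carbonic anhydrase of capillaries, differed by -1.28 (SE 0.251), BTNL9 by -1.08 (SE 0.198) and ADGRL4, an adhesion receptor of endothelium, by -0.92 (SE 0.176). The rest of the 12 were GNAZ, CCDC85A, PALMD, the prostaglandin receptor PTGER3, STC2, PLLP and FHIP1B, between -1.16 and -0.80. The lipase MGLL, at -0.82 (SE 0.166), was the 1 called of 13 lipid genes (0.923% of all genes were called lower).

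The genes most like TOP2A were sought over all 18 backfat libraries by Spearman's rho among 11348 genes with a mean of at least 5 CPM. Outside the 3 lists of division genes, the 10 highest were STMN1 (0.934), CDKN2C, RCC1, TCF19, NCAPG2, H2AZ1, RMI2, E2F7, NAAA and MMS22L (0.876). All but NAAA, a lysosomal amidase, are genes of chromatin, DNA repair, microtubules or the cell cycle, and no T cell or progenitor marker was among them. The median rho was 0.809 over 52 mitosis genes, 0.653 over 15 pan-leukocyte genes and 0.590 over 16 T and NK cell genes. Only list genes with a mean of at least 5 CPM enter, without TOP2A, so these counts are below those of the genes fitted. Macrophage genes, at 0.602, and B cell genes, at 0.549, lay close to the T and NK cell list, so the likeness is not particular to T and NK cells. It was 0.123 over the stem-like progenitor list, -0.204 over the committed preadipocyte list and -0.648 over the endothelial list, against -0.032 over all genes. These points share libraries and are a description.

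**Figure D4:**
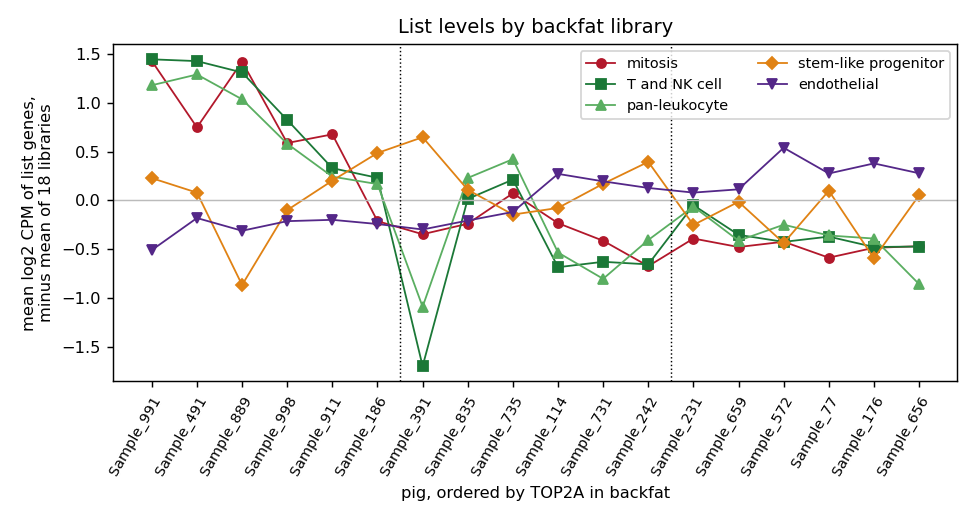
Mean log2 CPM of the genes of 5 lists in each of the 18 backfat libraries, minus the mean over the 18, with the pigs ordered by TOP2A and dotted lines at the edges of the high and low groups. The T and NK cell and pan-leukocyte means are highest in the 4 pigs at the left and the mitosis mean in the 5 at the left, and in pig Sample_391 the T and NK cell list is at -1.69 and the stem-like progenitor list at 0.65.

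The gradation within groups can be read from the list means per pig. In the high group the T and NK cell mean ran from 1.44 in pig Sample_991 to 0.23 in pig Sample_186, and the mitosis mean from 1.42 in pigs Sample_991 and Sample_889 to -0.21 in pig Sample_186. In pig Sample_889 the progenitor mean was -0.86, the lowest of the 18. In pig Sample_391, just outside the high group, the T and NK cell mean was -1.69 and the progenitor mean 0.65, the lowest and the highest of the 18, while its mitosis mean was -0.34. CD3D was 1.59 CPM and PTPRC 58.2 CPM there, the lowest PTPRC of all pigs. The ratio of TOP2A to PTPRC was 1.43 in pig Sample_391, between 0.395 and 0.668 in the high group and between 0.317 and 0.450 in the low group. The other 5 middle pigs had ratios from 0.256 to 0.705, so they too reached beyond both groups, and TOP2A, which set the groups, is the numerator. Pig Sample_391 was singled out after its values were seen.

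The leukocyte calls depend on which pigs stand at the edges of the groups. With pigs ranked by TMM-scaled TOP2A, pig Sample_391 replaces pig Sample_186 in the high group and pig Sample_242 replaces pig Sample_231 in the low group. The T and NK cell calls then went from 22 to 1 and the pan-leukocyte calls from 14 to 1, while the mitosis calls went from 45 to 44. The list medians were 1.36, 1.22 and 1.70 under that ranking, and the progenitor median was 0.13 with 0 calls. Over all genes, 229 were then called higher and 58 lower. Ranked by TPX2 or by the mean of 59 mitosis genes, which keep 5 of the 6 high pigs and 4 of the 6 low pigs, the T and NK cell calls were 16 and 19 and the medians 1.46 and 1.55.

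Mitosis and leukocyte levels moved together in these libraries, so a fit was added with the log2 level of PTPRC as a covariate. In it 0 genes were called in either direction. The mitosis median was 0.68, the T and NK cell median 0.38, the pan-leukocyte median 0.12 and the progenitor median 0.49. With PDGFRA as the covariate instead, the mitosis median was 1.59 with 44 calls and the T and NK cell median 1.42 with 20 calls. PTPRC nearly separated the groups (148 to 380 CPM in the high group, 71.0 to 156 CPM in the low group). Its covariate therefore largely stands in for the grouping. PDGFRA did not separate them (39.1 to 166 against 84.9 to 158 CPM), so its covariate had little to remove. For these reasons the fits cannot tell which cells the division transcripts go with. Which cells carried the TOP2A transcripts was not measured in any library.

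Muscle of the same pigs gives the comparison that can be tested. The ranking used no muscle library, but TOP2A levels of both tissues were already known to go together across the 18 pigs, so a higher TOP2A in muscle is not independent support. Of 10571 genes tested with edgeR's quasi-likelihood test, 0 (0%) passed an adjusted p of 0.05 in either direction; at an unadjusted p under 0.05, 682 (6.45%) were higher and 501 (4.74%) lower. DESeq2 called 28 higher and 9 lower. All 6 high libraries lay above all 6 low ones in 11 genes (0.104%) and below them in 55 (0.52%).

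**Figure D5:**
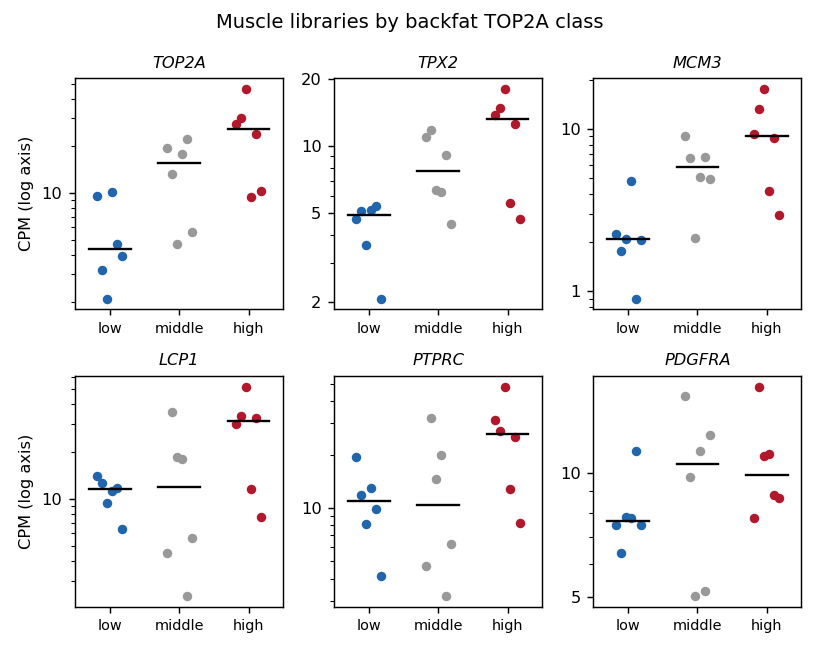
CPM on a log axis of 6 genes in muscle, with pigs in the classes set by backfat TOP2A, 6 per class, and bars at the medians. High and low pigs overlap for TOP2A, TPX2, MCM3, LCP1, PTPRC and PDGFRA, with pigs of the high group reaching further up in each.

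Muscle TOP2A was 9.44, 25.7 and 46.3 CPM (lowest, median, highest) in pigs of the high group. It was 2.10, 4.34 and 10.2 CPM in pigs of the low group. The groups overlapped at their edges. The log2 difference was 2.21 (SE 0.462; edgeR adjusted p = 0.302). TPX2 was 4.73, 13.2 and 18.0 CPM in pigs of the high group and 2.08, 4.93 and 5.41 CPM in pigs of the low group, also with overlap, a log2 difference of 1.45 (SE 0.333; edgeR adjusted p = 0.302). MCM3 differed by 2.06 (SE 0.448; edgeR adjusted p = 0.302).

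The muscle lists are described by their medians, beside -0.0057 over all genes. Mitosis had a median of 1.14, with 25 of 29 genes above 0 (49.1% of all genes were). At an unadjusted edgeR p under 0.05, 22 of the 29 were higher (6.45% of all genes were). DNA replication had a median of 0.29 over 25 genes. Recombination repair had a median of -0.011, with 3 of 7 genes above 0. At an unadjusted edgeR p under 0.05, 3 of the 7 were higher and 1 lower. Pan-leukocyte genes had a median of 1.04, with all 13 above 0 and all 13 at an unadjusted p under 0.05. PTPRC in muscle was 8.28, 26.1 and 48.4 CPM in pigs of the high group and 4.16, 10.9 and 19.4 CPM in pigs of the low group. The 2 ranges overlap widely. T and NK cell genes had a median of 0.88 over 10 genes, with NKG7 at 1.40 (SE 0.487) and CD2 at 0.23 (SE 0.469).

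Progenitor and matrix genes in muscle were above 0 as well. All 10 stem-like progenitor genes were above 0, with a median of 0.44 and 6 at an unadjusted p under 0.05. PDGFRA in muscle was 7.76, 9.88 and 16.1 CPM in pigs of the high group and 6.37, 7.63 and 11.3 CPM in pigs of the low group, a log2 difference of 0.45 (SE 0.195). Of 25 matrix genes 24 were above 0, with a median of 0.63 and COL1A2, a chain of fibrillar collagen, at 1.36 (SE 0.401). Whether these medians differ between muscle and backfat was not tested. The 5 muscle genes with a symbol and the smallest p were MOB1B (1.07, SE 0.199), CENPF (2.14, SE 0.448), DOCK5 (1.28, SE 0.275), ANLN (1.52, SE 0.325) and BST1 (1.34, SE 0.289), each at an edgeR adjusted p of 0.302. CENPF, at the kinetochore, and ANLN, at the cleavage furrow, act in mitosis, MOB1B belongs to the Hippo pathway and DOCK5 activates the GTPase Rac.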

How the data were processed

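RNA sequencing of backfat and longissimus muscle from 18 pigs gave 36 libraries, read in pairs of 100 nt per the labels' protocols. The authors deposited expected counts per Ensembl pig gene, not normalised, for 25322 genes. Per the submitters' processing notes the tools were GSNAP and HTSeq, with no version. Not given in the sources used here: genome build, annotation and the strand of counting, so reads of overlapping genes cannot be told apart. The deposited values run in steps of 0.5 (35.1% not whole) and were rounded, ties to even, for the fits. A further 5 lines that name no gene stayed out; counts in no gene made up 28.2% to 53.8% of a backfat library and 16.1% to 34.1% of a muscle library. Unused sample columns numbered 0. Symbols, for 11804 identifiers, came from a table of current names.

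Backfat libraries were ranked by TOP2A over the library total, and 6 high and 6 low pigs were compared with edgeR 4.0.16 in R 4.3.3 (TMM factors, default low-count filter, robust quasi-likelihood test, Benjamini-Hochberg over all genes kept). SE is the log2 difference over the square root of F. Because TOP2A set the groups, backfat calls are a description. DESeq2 1.42.0, other scalings, rankings, group sizes and covariates (ACTA1 among them) and leaving out each pig were alternatives; the PTPRC and PDGFRA covariates and the TMM-scaled ranking were added after seeing the data. Summaries, exact permutation tests and figures used Python 3.11.15, pandas 2.3.3, NumPy 2.4.6, SciPy 1.17.1 and Matplotlib 3.10.9. The fit was tested on simulated data.

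Named genes are TOP2A and TPX2, the most abundant genes of every list (at most 6), all called genes of 6 lists, the 12 non-overlapping genes with the largest difference in each direction (at least 5 CPM), the 10 most like TOP2A, and in muscle, with fewer than 3 calls, the 5 of smallest p; others are named for illustration, and some genes under the rule are not reported here. Groups and the 33 gene lists were chosen with earlier results of these data known. P values set a group difference against the spread between these pigs. Those of the backfat gene fits test nothing, because TOP2A of the same libraries set the groups.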

Additional observations from a re-analysis of the deposited data

Results flagged for a closer look

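In groups of 6 libraries, a value was singled out where the gap to its nearest neighbour took more of the group's range than Dixon's 95% limit allows. Of 108 groups checked 10 were so marked, and chance marks about 1 in 20. The backfat library of pig Sample_656, in the low group, had the smallest gene total (2990913) and the largest share of counts in no gene (53.8%), and its FCER1G level (31.2 CPM) lay far under those of the other low pigs. In GZMA, pig Sample_186 was low within the high group (7.17 CPM) and pig Sample_176 low within the low group (3.40 CPM). FANCD2 was far higher in pig Sample_231 (18.3 CPM) than in the other low pigs, and CD79B in pig Sample_491 (28.6 CPM) than in the other high pigs. Sarcomere genes summed to 9943 CPM in the backfat of pig Sample_911, far over the other high pigs. In muscle, PDGFRA in pig Sample_176 (11.3 CPM) stood above the other low pigs and the gene total of pig Sample_998 (6216459) above the other high pigs. The causes were not tested.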

How the results depend on the processing

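No paired analysis was possible because the high and low groups are different pigs, so the numbers they carry pair no high library with a low one. Against 539 higher and 121 lower backfat genes, the ACTA1 covariate gave 346 and 47, the TMM-scaled ranking 229 and 58, and the PTPRC covariate 0 and 0. Lower genes numbered 299 with DESeq2, 301 with 4 pigs against 4, 337 with 9 against 9 and 194 with the PDGFRA covariate. Leaving out 1 pig gave 350 to 709 higher and 39 to 252 lower genes in backfat and 0 to 6 higher and 0 to 1 lower in muscle. The muscle count of 0 became 28 higher and 9 lower with DESeq2, 2 higher when ranked by TPX2, 14 higher with the TMM-scaled ranking and 1 lower with all 18 libraries in 3 groups. With PTPRC as a covariate the backfat medians were 0.68 (mitosis), 0.38 (T and NK cell), -0.072 (B cell), 0.12 (pan-leukocyte), 0.49 (stem-like progenitor) and -0.40 (endothelial), the muscle medians 0.35 (mitosis), -0.091 (T and NK cell) and -0.0094 (pan-leukocyte), and CD8A in backfat changed sign to -0.49. The T and NK cell median was 2.03 with 4 against 4. The share of the 10 most abundant backfat genes changed direction with 9 against 9 (exact permutation p = 0.804). The cause was not tested in any of these. Leaving out 1 pig moved backfat medians within 1.54 to 1.84 (mitosis), 1.34 to 1.65 (T and NK cell), 0.85 to 1.08 (B cell), 1.14 to 1.34 (pan-leukocyte), -0.02 to 0.26 (stem-like progenitor), -0.24 to -0.12 (committed preadipocyte) and -0.69 to -0.55 (endothelial), and muscle medians within 0.90 to 1.45 (mitosis), 0.68 to 1.12 (T and NK cell), 0.80 to 1.23 (pan-leukocyte) and 0.34 to 0.51 (stem-like progenitor). Genes near 1 CPM, such as CTLA4, rest on few counts at these depths.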

Other observations

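Interferon-response genes were measured outside the lists above. In backfat 12 of 13 were below 0 in the high group, with a median of -0.45 and 0 calls. Log2 differences were -0.60 (SE 0.228) in IFI44L, an interferon-induced gene of unclear role, and -0.45 (SE 0.360) in the antiviral GTPase MX1. For 13 genes that 0 is near the background, and 49.4% of all backfat genes were above 0. Summed, the list was 1885 to 6261 CPM in the high group and 4618 to 5917 CPM in the low group, so the high pigs spanned the low range. In muscle 12 of 13 were also below 0, with a median of -0.47 and 0 calls by edgeR.

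Growth hormone and IGF axis genes had 0 calls among 8 in backfat and a median of -0.15, with the receptor GHR at -0.33 (SE 0.208) and the binding protein IGFBP4 at -0.43 (SE 0.184). Schwann cell genes had 0 calls among 4. Both counts of 0 are near the background (4.11% higher, 0.923% lower) for lists of these sizes.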
